A study of Mus musculus with 6 samples.

Results

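Homeostatic-type microglia were taken as nuclei that carried general microglial RNA and RNA of genes typical of unchallenged microglia, with none of 6 genes typical of disease-associated microglia. They were 1428 of 42628 nuclei kept (3.35%), and 1428 of 3020 nuclei classed as microglial (47.3%). A nucleus had to hold at least 500 unique molecular identifiers (UMIs, each standing for 1 captured RNA molecule) and less than 5% mitochondrial UMIs. At least 2 of 6 lineage genes (Csf1r, Inpp5d, Ly86, C1qa, C1qb, Apbb1ip) had to be detected, and at least 1 UMI of P2ry12, Tmem119, Sall1 or Siglech. There could be 0 UMIs of Gpnmb, Spp1, Itgax, Cst7, Lpl and Atp6v0d2, 0 of the macrophage genes Mrc1 and F13a1, and at most 1 of the neuronal genes Snap25 and Rbfox3. The nuclei were thus chosen by their measured UMI counts of these 20 genes, whose values are given as a description and were not tested.

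Frozen lumbar cord of the C57BL/6 strain, taken at 110 days of age, gave the nuclei, and all mice of both groups carried SOD1G93A, a mutant form of human superoxide dismutase used to model amyotrophic lateral sclerosis. One group of 3 libraries was SOD1G93A/PHD1+/+ and the other group of 3 was SOD1G93A/PHD1-/-, so there were no mice without SOD1G93A and every nucleus described here came from cord that carried it. PHD1 is the oxygen-sensing prolyl hydroxylase encoded by Egln2. The labels do not say in which cells PHD1 was missing or where in the gene the deletion lies, and they describe the mice as littermate pairs without tying a pair to a replicate number.

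Microglia are the resident macrophages of the brain and spinal cord. In healthy tissue they survey their surroundings with fine processes, depend on signalling through the CSF1 receptor, and hold their identity through TGF-beta signalling and transcription factors such as PU.1, MEF2 proteins and SALL1. In neurodegeneration some of them turn down P2ry12, Tmem119 and other homeostatic genes and turn on genes of lysosomes, lipid handling and phagocytosis, a state known as disease-associated microglia. PHD1 belongs to the hydroxylases that mark hypoxia-inducible factors (HIF) for destruction by VHL when oxygen is present.

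Replicate 1 of both groups stood apart before any comparison. The median homeostatic-type nucleus held 741.5 UMIs in PHD1+/+ replicate 1 and 732 in PHD1-/- replicate 1, against 1317 to 1518 in the other 4 libraries. The summed neuron markers made up 6079 and 5569 CPM (UMIs per 1000000 UMIs of these nuclei) in the 2 replicate 1 libraries, against 389 to 699 CPM in the others. The first principal component of the summed counts, with 62.3% of the variance, separated replicate 1 of both groups from the rest. The libraries shared 0 barcodes among these nuclei, and among all nuclei 86 between the 2 replicate 1 libraries and at most 14 between any other pair. Comparisons below are therefore given with all 6 libraries and, where it changes a result, with replicates 2 and 3 only.

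The gap reached the gene lists of the nuclei themselves. The 22 genes of the homeostatic list summed to 12439, 26294 and 25149 CPM in PHD1+/+ replicates 1 to 3 and to 14509, 23112 and 22771 CPM in PHD1-/- replicates 1 to 3. Phagocytosis genes summed to 3501, 8390.0 and 8317 CPM and to 4153, 7573 and 7946 CPM in the same order. In both lists replicate 1 was the lowest library of its genotype, and the other 4 libraries lay close together. The disease-associated list, without the gate genes, was highest in replicate 2 of both genotypes, at 23451 and 19485 CPM. The part of depth and of other cells' RNA in these gaps was not tested.

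**Figure D1:**
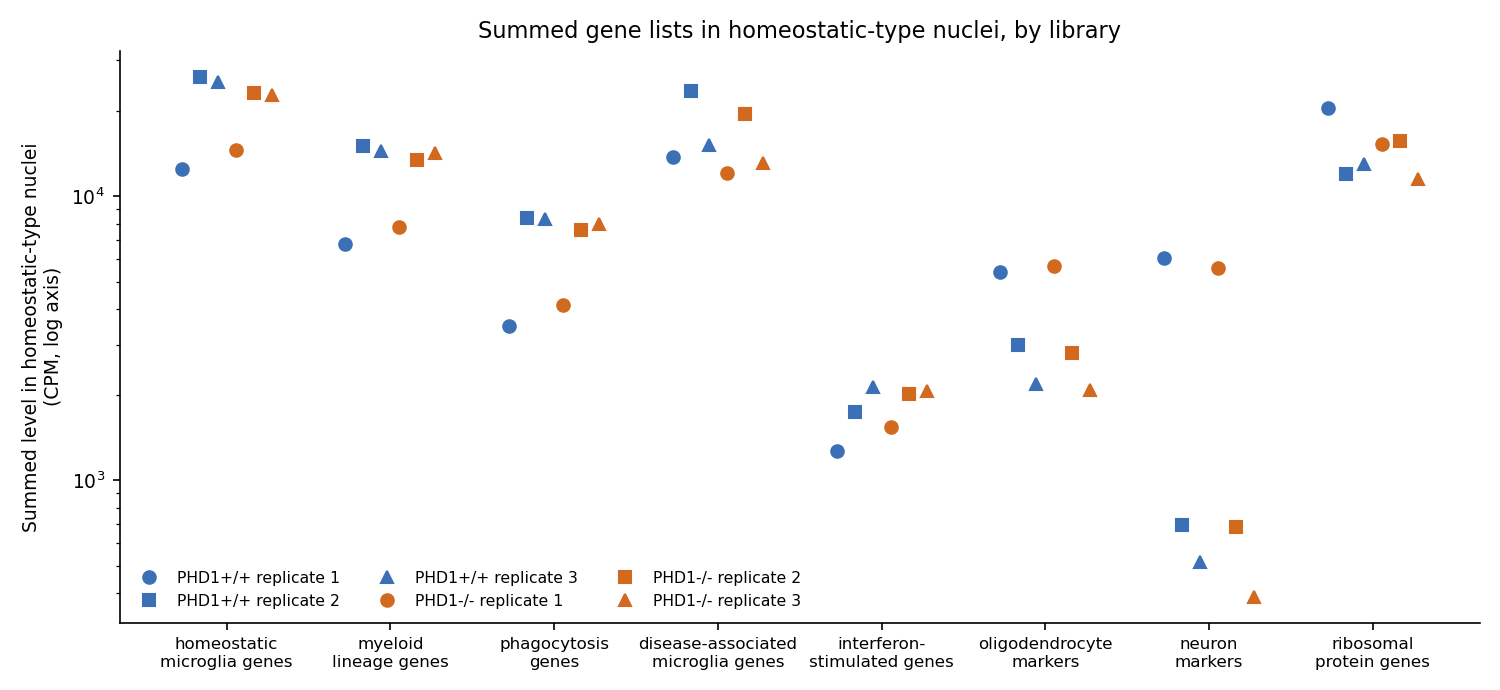
Summed level (y axis, CPM on a log axis) of 8 gene lists in the homeostatic-type nuclei of each library, in blue for PHD1+/+ and orange for PHD1-/-, with circles, squares and triangles for replicates 1, 2 and 3. Replicate 1 of both genotypes is low for homeostatic, myeloid and phagocytosis genes and high for neuron markers (6079 and 5569 CPM) and oligodendrocyte markers.

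The label was set beside markers of microglia and of other cells. Csf1r, the receptor on which microglia depend for survival, was detected in 67.4% of homeostatic-type nuclei at 1047 CPM, and Inpp5d, a phosphatase of myeloid cells, in 82.5% at 1565 CPM. Both are lineage genes that the rule used, so these shares describe the choice and check nothing. Of microglial genes that the rule did not use, Cx3cr1, the fractalkine receptor, was detected in 69.2% of the nuclei, against 4.71% of the nuclei outside the microglial classes and 2.28% of the 11665 oligodendrocyte-type nuclei, which had been chosen to lack the lineage genes. Cst3, the protease inhibitor cystatin C, was detected in 91.9%, against 49.4% of the nuclei outside the microglial classes, so it sets microglia apart less.

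Several markers of macrophages at the borders of the nervous system had few UMIs in these nuclei. Over all 1428 nuclei Cd163 had 1 UMI, Pf4 1 UMI, Lyve1 0, Ccr2 8 and Ms4a7 16. The whole list of 8 such markers summed to 123 CPM, with a range of 97.2 to 175 CPM over the 6 libraries. Most of that level came from markers of the list not named here. T and NK cell markers summed to 2.95 CPM, B cell markers to 11.3 and neutrophil markers to 17.7 CPM. Oligodendrocyte markers were higher, at 3195 CPM, with 5391 and 5664 CPM in replicate 1 and 2081 to 3000.0 in the others. In all, 117 of these nuclei (8.19%) held at least 3 UMIs of the 8 neuron markers, 40 of them in PHD1+/+ replicate 1 and 22 in PHD1-/- replicate 1.

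The 4 genes of the homeostatic gate were seen to different extents. P2ry12, an ADP receptor that guides microglial processes, was detected in 70.4% of the nuclei. Siglech, a sialic acid-binding lectin, was detected in 54.3%, Tmem119, a membrane protein used to mark microglia, in 30.5% and Sall1, a transcription factor of microglial identity, in 26.2%. A single gate gene was detected in 641 of the nuclei (44.9%), 2 in 469, 3 in 260 and all 4 in 58 (4.06%). Of the 6 lineage genes, 426 nuclei had all 6 and 140 had only 2.

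The levels of the gate genes varied over the libraries. P2ry12 stood at 856, 1007 and 837 CPM in PHD1+/+ replicates 1 to 3 and at 1161, 930.3 and 781 CPM in PHD1-/- replicates 1 to 3. Tmem119 stood at 253, 386 and 288 CPM and at 189.6, 277 and 245 CPM in the same order. For both genes the groups overlapped. Siglech was at 237 and 284 CPM in the 2 replicate 1 libraries and at 685 to 869 CPM in the other 4, and Sall1 at 124 and 130.3 CPM against 237 to 292 CPM. Siglech and Sall1 thus had their low values in replicate 1 of both genotypes.

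Free RNA in the droplets bears on a gate of 1 UMI. Among the oligodendrocyte-type nuclei, which should lack the 4 homeostatic genes, 6.07% to 10.4% per library had a UMI of them, at a median depth of 1446 UMIs. Among microglial nuclei the share with such a UMI was 46.3% to 76.1%, and the median homeostatic-type nucleus held 1271 UMIs. Among all nuclei with no lineage gene, which were of several types, it was 9.48% to 18.8%. A UMI of the 6 disease-associated genes was seen in 22.4% to 42.2% of the microglial nuclei, in 5.79% to 10.5% of the oligodendrocyte-type nuclei and in 8.79% to 12.7% of all nuclei with no lineage gene. Spp1, the gene of the secreted protein osteopontin, was the least specific gene of that gate, seen in 10.03% to 19.6% of microglial nuclei and in 7.30% to 10.9% of nuclei with no lineage gene. The part of free RNA in the gates was not tested further.

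Nuclei just inside and just outside the gates were compared by the summed level of gene lists. Nuclei admitted on 1 homeostatic UMI (445 nuclei) had 16257 CPM over the 22 genes of the homeostatic list, which leaves out the gate genes. Nuclei with 2 such UMIs had 20906 CPM, those with 3 had 23994 and those with at least 4 (452 nuclei) had 25963. Nuclei with 0 UMIs of either gate, 645 of the microglial nuclei, had 9793 CPM. The list was higher at each step of the gate, and so was the median depth, which went from 1013 to 1619 UMIs per nucleus. The groups here and in the next paragraph pooled all libraries. Replicate 1 of PHD1+/+ and of PHD1-/- gave 241 and 116 of the 645 nuclei, against 224 and 157 of the 1428 homeostatic-type nuclei. The part of library in these steps was not tested.

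On the other side, 312 nuclei were kept out for 1 UMI of the disease-associated genes although they had homeostatic UMIs. Their homeostatic list stood at 21340 CPM, near the 21947 CPM of all homeostatic-type nuclei, and their disease-associated list at 22015 CPM against 17244 CPM. The 249 nuclei with homeostatic UMIs and at least 2 disease-associated UMIs had 19829 and 31693 CPM. The plot of summed list levels by UMIs of the homeostatic genes shows the steps of the homeostatic gate only. The 140 nuclei that passed with only 2 lineage genes had 9520 CPM of the homeostatic list and 5371 CPM of neuron markers, and 276 nuclei kept out with 1 lineage gene had 2489 and 6215 CPM.

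**Figure D2:**
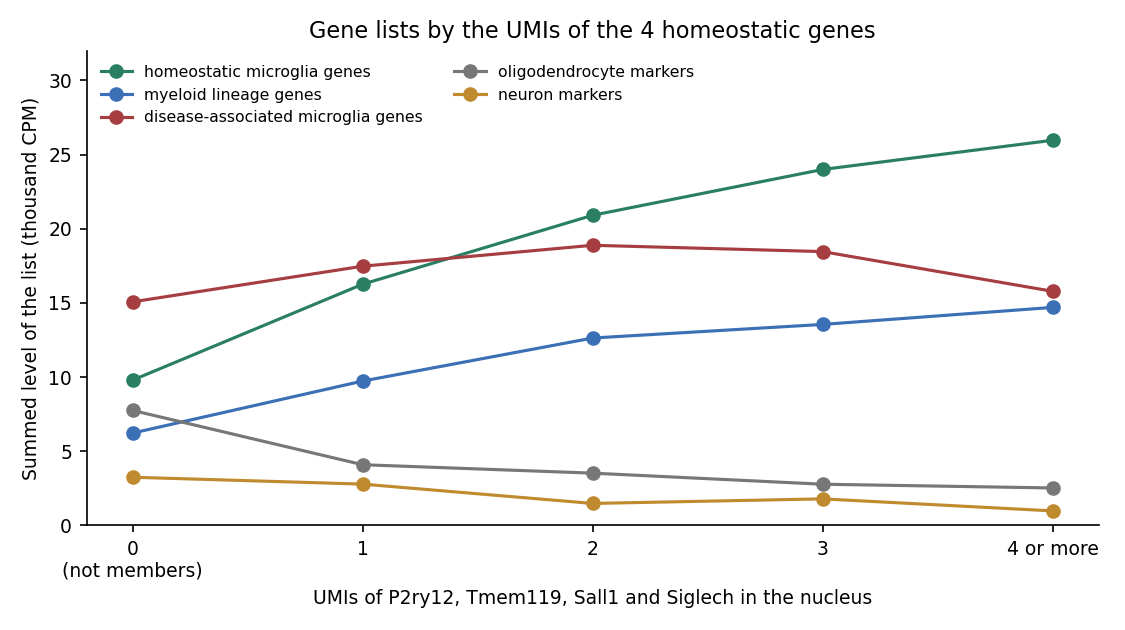
Summed level (y axis, CPM divided by 1000) of 5 gene lists in microglial nuclei grouped by their UMIs of P2ry12, Tmem119, Sall1 and Siglech (x axis), with no disease-associated UMIs in any group; nuclei with 0 are not homeostatic-type. The homeostatic list goes from 9793 CPM at 0 UMIs to 25963 CPM at 4 or more, while the oligodendrocyte markers go from 7748 to 2520.3 CPM. All libraries are pooled, and replicate 1 of PHD1+/+ and of PHD1-/- gave 241 and 116 of the 645 nuclei with 0.

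The promoters of genes that differed between homeostatic-type nuclei and nuclei with disease-associated RNA only, described further on, were searched for 4 short motifs of microglial transcription factors. RefSeq promoter windows of 300 bases (250 before and 50 after each start, build GRCm38.p6) were matched by symbol for 199 of the 261 genes that were higher and 218 of the 272 that were lower. Both strands were searched. For each of 2 motifs in a direction, the called gene of largest change with a match and at least 100 CPM is shown, to let the letters be seen beside the values. The 250 bases before the start are printed, 5′ to 3′ on the gene's strand, with the match in capitals. Ptgs1 (chr2:36230176-36230425, plus strand), which encodes cyclooxygenase-1, holds the PU.1 motif GAGGAAGT beginning 24 bases before its start. Rhobtb1 (chr10:69208302-69208551, plus strand), an atypical small GTPase, holds a match to a loose MEF2 pattern at 168 bases. That pattern allows any base at its 4 middle positions, and those of this match include G and C. Ptgs1 and Rhobtb1 were higher in homeostatic-type nuclei.
Ptgs1: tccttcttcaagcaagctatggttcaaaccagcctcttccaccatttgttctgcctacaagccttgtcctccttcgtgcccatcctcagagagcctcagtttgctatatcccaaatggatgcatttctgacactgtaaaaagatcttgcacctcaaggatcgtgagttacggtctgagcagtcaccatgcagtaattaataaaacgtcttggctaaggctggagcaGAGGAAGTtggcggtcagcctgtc
Rhobtb1: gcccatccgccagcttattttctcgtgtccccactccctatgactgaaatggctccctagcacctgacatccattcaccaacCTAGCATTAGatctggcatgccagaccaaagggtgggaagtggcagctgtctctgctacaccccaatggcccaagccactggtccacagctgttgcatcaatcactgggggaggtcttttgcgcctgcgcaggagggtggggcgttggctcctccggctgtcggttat
Mmp12 (chr9:7344147-7344396, plus strand), which encodes macrophage elastase, and Bcar3 (chr3:122419507-122419756, plus strand), an adaptor protein, were lower in homeostatic-type nuclei. Mmp12 holds the PU.1 motif, read on the other strand, at 88 bases before its start, and Bcar3 holds CACGTG, the E-box read by MITF and TFEB, at 170 bases.
Mmp12: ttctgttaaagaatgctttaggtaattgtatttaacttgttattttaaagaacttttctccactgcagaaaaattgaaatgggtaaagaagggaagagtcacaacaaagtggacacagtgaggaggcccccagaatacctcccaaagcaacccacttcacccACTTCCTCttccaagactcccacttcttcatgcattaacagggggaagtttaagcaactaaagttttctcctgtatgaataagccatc
Bcar3: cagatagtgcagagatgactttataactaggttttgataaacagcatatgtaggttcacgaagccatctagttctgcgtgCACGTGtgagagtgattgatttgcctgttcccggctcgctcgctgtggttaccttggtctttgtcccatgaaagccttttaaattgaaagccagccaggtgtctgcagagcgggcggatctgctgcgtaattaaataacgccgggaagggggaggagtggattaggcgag

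The motifs were spread over both directions. Windows on chromosome 18 were left out of the search and of the matching by symbol above. GAGGAAGT was found in 5.44% of the windows of higher genes (16 of 294), in 5.83% of those of lower genes (18 of 309), in 3.48% of all tested genes' windows and in 3.20% of all 32851 windows. The loose MEF2 pattern was found in 4.08%, 0.971%, 2.60% and 3.69% of the same 4 sets. CACGTG was found in 8.16%, 12.9%, 9.58% and 7.15%, and the AP-1 motif TGANTCA in 6.46%, 4.85%, 4.95% and 7.81%. Matches to the loose MEF2 pattern were thus 12 among windows of higher genes and 3 among windows of lower genes. PU.1 matches were about as frequent in both. A match describes letters in the window and not binding.

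The share of homeostatic-type nuclei was compared by genotype over libraries. Of all nuclei kept, they made up 2.45% (224 of 9155, exact Clopper-Pearson 95% interval 2.14 to 2.78), 4.00% (321 of 8016, 3.59 to 4.46) and 3.06% (164 of 5361, 2.61 to 3.56) in PHD1+/+ replicates 1 to 3. In PHD1-/- replicates 1 to 3 they made up 2.38% (157 of 6588, 2.03 to 2.78), 4.33% (320 of 7398, 3.87 to 4.81) and 3.96% (242 of 6110, 3.49 to 4.48). Replicate 1 had the lowest share in both groups, and the groups overlapped. The means were 3.17% ± 0.785 and 3.56% ± 1.03 (SD, n = 3 each), a difference of 0.386 percentage points with an exact two-sided permutation p of 0.8. These intervals cover counting error only.

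Among the microglial nuclei the homeostatic-type share was 37.2%, 46.3% and 49.8% in PHD1+/+ replicates 1 to 3 and 41.5%, 51.0% and 62.2% in PHD1-/- replicates 1 to 3. It was higher in the PHD1-/- library of each replicate number, with overlap between the groups. The means were 44.4% ± 6.51 and 51.6% ± 10.4 (SD, n = 3 each), a difference of 7.13 points with an exact permutation p of 0.4 (0.6 adjusted over the 3 share tests). With the replicate number as a block the exact p was 0.25, the smallest that 3 pairs can give, as 0.10 is the smallest for 3 against 3. With each nucleus thinned to 800 UMIs the means were 42.1% ± 12.04 and 46.1% ± 16.8, a difference of 4.04 points. The pairs then differed by -1.65, 7.21 and 6.57 points, so replicate 1 turned and the blocked exact p was 0.5. Thinning left out 52.3% and 55.8% of the microglial nuclei of the 2 replicate 1 libraries.

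The share of microglial nuclei with any of the 6 disease-associated RNAs, with or without homeostatic RNA, was lower on average in PHD1-/- libraries, and it is not independent of the homeostatic-type share, since both are parts of 1 total. It was 22.8%, 42.2% and 34.7% over PHD1+/+ replicates 1 to 3, against 27.8%, 33.6% and 22.4% over PHD1-/- replicates. The means were 33.2% ± 9.81 and 27.9% ± 5.62 (SD, n = 3 each), with an exact permutation p of 0.4. The difference was -5.30 points, and -2.16 points with nuclei thinned to 800 UMIs. None of the 3 shares differed by more than the spread between libraries.

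**Figure D3:**
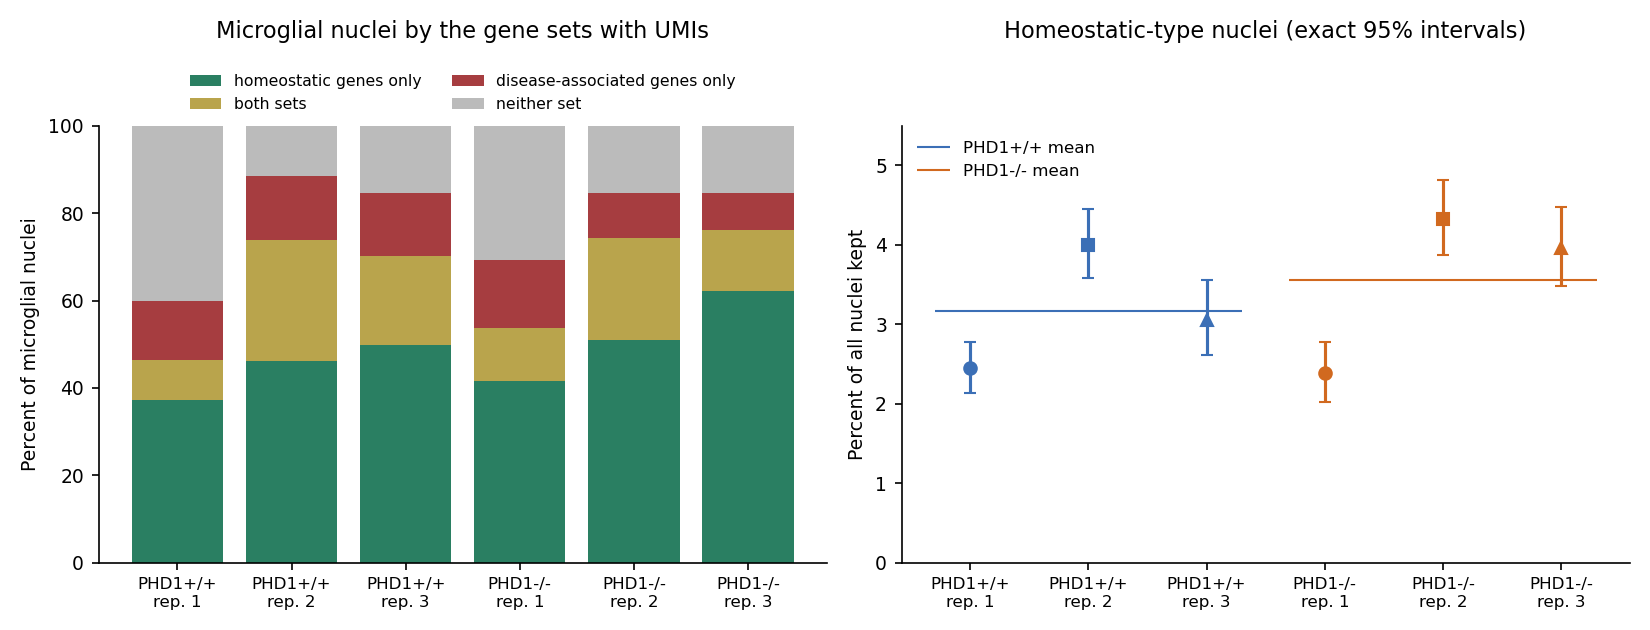
Left, the percent of microglial nuclei in each library (bars) with UMIs of the homeostatic genes only, of both gene sets, of the disease-associated genes only or of neither; right, homeostatic-type nuclei as a percent of all nuclei kept in each library (points, exact 95% intervals) with the mean of each genotype (lines). The homeostatic-only part runs from 37.2% to 49.8% in PHD1+/+ and from 41.5% to 62.2% in PHD1-/- libraries.

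Egln2, the gene that encodes PHD1, was looked at first in the genotype comparison. Homeostatic-type nuclei held 6, 10 and 2 Egln2 UMIs in PHD1+/+ replicates 1 to 3 and 1, 4 and 2 in PHD1-/- replicates 1 to 3. That is 23.3, 21.7 and 8.12 CPM against 5.92, 8.04 and 4.99 CPM, and the groups did not overlap, by a narrow margin. The means were 17.7 ± 8.35 and 6.32 ± 1.56 CPM (SD, n = 3 each), with an exact permutation p of 0.10, the smallest this design can give. The libraries read transcripts near their 3′ end, so RNA that still carries that end may be counted in PHD1-/- nuclei. The related hydroxylase gene Egln1 had 33 UMIs against 32, or 34.2 against 30.0 CPM over the summed libraries. Egln3 had 12 UMIs against 8. It stood at 15.6, 10.9 and 12.2 CPM in PHD1+/+ and at 5.92, 10.05 and 4.99 CPM in PHD1-/- replicates 1 to 3. For Egln3, too, the groups did not overlap, by a narrow margin. Egln1 and Egln3 were not compared by a permutation test.

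No gene passed the test between genotypes in homeostatic-type nuclei. Counts were summed per library and tested with edgeR's quasi-likelihood test, and 0 of 6652 genes had an adjusted p under 0.05 (0% called), with 46 at an unadjusted p under 0.05 (0.692%). By DESeq2 the number called was also 0, and 13 genes had p under 0.05 before adjustment. With the replicate number as a block 2 genes were called higher in PHD1-/-, Hba-a1 and Hba-a2 (0.0301%). With replicates 2 and 3 only, 3 of 7800 genes were higher and 6 lower (0.0385% and 0.0769%). Without a filter on low counts 6 of 19069 genes were called (0.0315%), 4 of them haemoglobin genes, with Egfr and Adamts12 resting on 55 and 39 UMIs of 1 nucleus in PHD1-/- replicate 3.

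Most haemoglobin UMIs of 1 library lay in 1 nucleus. Hba-a1 and Hba-a2 encode near-identical alpha-globin chains, so reads may have been split between them, and the same holds for Hbb-bs and Hbb-bt, the beta-globin genes. In PHD1-/- replicate 2, a single nucleus held 1188 haemoglobin UMIs, 27.2% of its 4373 UMIs. It held 264 of the library's 280 Hba-a1 UMIs, 205 of 226 for Hba-a2, 597 of 684 for Hbb-bs and 122 of 135 for Hbb-bt. It passed the gates with 1 UMI each of Csf1r, C1qa and P2ry12. Without it, 0 genes were called with all libraries and with the replicate block.

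The 6 genes lower in PHD1-/- with replicates 2 and 3 only were Pcdh15, Lhfpl3, Sox2ot, Nlgn1, Adarb2 and Gm42418. Pcdh15 (a protocadherin), Lhfpl3 and Sox2ot are known from oligodendrocyte precursors and neurons, and their UMIs were held by few nuclei. Pcdh15 had 34 of its 41 UMIs in PHD1+/+ replicate 3 in 1 nucleus, and Lhfpl3 had 30 of 33 in 1 nucleus. Without the nuclei that held at least 3 neuron-marker UMIs, 0 genes were called with replicates 2 and 3, down from 9. Without those nuclei the log2 difference went from -0.84 to -0.83 for Gm42418 and from -2.78 to -2.12 for Pcdh15. It went from -1.80 to -1.43 for Sox2ot, from -1.45 to -0.89 for Nlgn1 and from 4.71 to 5.06 for Hba-a1. The values of Lhfpl3 and Adarb2 are not given here. The part of those nuclei in the differences was not tested. With all 6 libraries Sox2ot and Nlgn1 had differences of -0.26 and -0.39, which turned to 0.09 and 0.17 without PHD1+/+ replicate 1, to 0.19 and 0.01 without PHD1-/- replicate 2, and to 0.25 and 0.12 without PHD1-/- replicate 3.

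The genes with the smallest unadjusted p are given by rule, and none passed the adjustment (all adjusted p above 0.99 in edgeR). Nol10, a nucleolar protein gene, stood at 14.8, 28.1 and 17.2 normalised CPM (scaled by the trimmed mean of M-values) in PHD1+/+ and at 71.6, 40.9 and 47.7 in PHD1-/- replicates 1 to 3. Its log2 difference was 1.23 ± 0.42 (SE) with an unadjusted p of 0.0183. Plekha2, a gene for a phosphoinositide-binding protein, stood at 54.4, 51.5 and 47.3 against 86.0, 73.1 and 106 normalised CPM. For both genes the PHD1-/- libraries lay above all PHD1+/+ libraries, on 3 to 40 UMIs per library. Gm13708, N4bp2l2 and Zfp932 also had positive log2 differences, of 0.92, 0.73 and 1.08.

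In the other direction Clstn3, which encodes calsyntenin-3, stood at 44.5, 53.8 and 47.3 normalised CPM in PHD1+/+ and at 21.5, 25.8 and 10.6 in PHD1-/-. Its log2 difference was -1.34 ± 0.43 (SE) with an unadjusted p of 0.0126. The groups did not overlap, on 3 to 23 UMIs per library. Hdgfl2, Rex1bd, Cep164 and Sema5a had log2 differences of -1.16, -1.41, -1.07 and -1.18. Sema5a had 14 of its 23 UMIs in PHD1+/+ replicate 2 in 1 nucleus.

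With all 6 libraries the homeostatic genes were close between the genotypes. Of 22 genes on the list 21 were tested, 7 of them with a positive difference. The median log2 difference was -0.06, beside -0.02 over all 6652 genes. That median ran from -0.32 to 0.095 when 1 library was left out. Cst3 stood at 5026 ± 1584 normalised CPM with PHD1 and 4270.04 ± 1063 without it (SD, n = 3 each). Ctss, the lysosomal protease cathepsin S, stood at 2449 ± 107 and 2357 ± 287. Each difference was smaller than the SD of at least 1 group.

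Disease-associated genes outside the gate had a median log2 difference of -0.27, with 5 of 23 positive and 0 called. Leaving out 1 library gave medians from -0.33 (without PHD1-/- replicate 2) to -0.01 (without PHD1+/+ replicate 2). Apoe, the lipid carrier apolipoprotein E, stood at 5238, 10504 and 4369 normalised CPM in PHD1+/+ replicates 1 to 3 and at 2958, 8471 and 4652 in PHD1-/- replicates 1 to 3. The value in replicate 2 was the highest of its group in both genotypes, and the groups overlapped. Apoe RNA was detected in 65.4% of the oligodendrocyte-type nuclei as well, and the part of free RNA in its level here was not tested. Trem2, a lipid-sensing receptor of microglia, stood at 892 ± 282 and 841 ± 159.7 (SD, n = 3 each).

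Interferon-stimulated genes, which the study's title names in astrocytes, had a median log2 difference of 0.03 with 12 of 23 tested genes positive, and 0.17 with 17 of 27 positive in replicates 2 and 3 only. Trim30a stood at 168 ± 42.02 and 188 ± 34.2 normalised CPM (SD, n = 3 each), Rnf213 at 106 ± 51.8 and 133 ± 27.8, and Samhd1, a nucleotide hydrolase that limits viruses, at 100 ± 31.9 and 123 ± 25.7. Each overlapped between the groups. The chemokine gene Cxcl10 fell under the filter on low counts, with 0, 5 and 1 UMIs in the PHD1+/+ libraries of replicates 1 to 3 against 4, 14 and 13 in the PHD1-/- libraries. Most came from single nuclei, 12 of the 14 UMIs in PHD1-/- replicate 2 and 11 of the 13 in PHD1-/- replicate 3. Without the filter the log2 difference of Cxcl10 was 2.22 ± 0.73 (SE; unadjusted p = 0.00245, adjusted p above 0.99 in edgeR), and with replicates 2 and 3 only 1.80 ± 0.67 (unadjusted p = 0.0130, adjusted p = 0.95 in edgeR).

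Genes of oxygen sensing did not pass the test either. Of the 8 hydroxylase and HIF subunit genes 4 were tested, with a median log2 difference of 0.12 and 3 positive. Hif1a, the inducible subunit of the factor, stood at 139 ± 62.4 and 156 ± 34.8 normalised CPM (SD, n = 3 each), its partner Arnt at 148 ± 41.0 and 154 ± 40.8, and Vhl, which targets HIF for destruction, at 37.9 ± 13.5 and 45.8 ± 34.6. Of 26 HIF target and glycolysis genes 19 were tested, with a median of -0.05 and 6 positive. Hk2, hexokinase 2, stood at 408 ± 67.5 and 414 ± 45.2, and P4ha1, a collagen prolyl hydroxylase, at 279.5 ± 14.1 and 265 ± 39.1.

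Lists of 5 other functions had medians between -0.11 and 0.08, with 0 called in each. They were genes of TGF-beta signalling (0.06, 8 of 12 positive), NF-kB and inflammation (0.02, 6 of 12), antigen presentation (0.08, 4 of 6), phagocytosis (-0.04, 5 of 15) and lipid handling (-0.11, 2 of 11). Tgfbr1, a receptor of TGF-beta, stood at 2058 ± 607 and 2038 ± 631 normalised CPM (SD, n = 3 each), and Mertk, a receptor for phagocytosis, at 1448 ± 781 and 1401 ± 635. Neuron markers had a median of -0.33 with 0 of 5 positive and ribosomal protein genes -0.14 with 19 of 81 positive. The ribosomal median turned to 0.12, with 63 of 81 positive, in replicates 2 and 3 only. The neuron-marker median turned to 1.13 without PHD1+/+ replicate 1, to 0.09 without PHD1-/- replicate 2 and to 0.13 without PHD1-/- replicate 3, and stood at -1.51 without PHD1-/- replicate 1. Of the 16 lists with at least 5 genes tested, 14 had a median that changed sign when some 1 library was left out, the disease-associated and interferon lists being the exceptions.

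**Figure D4:**
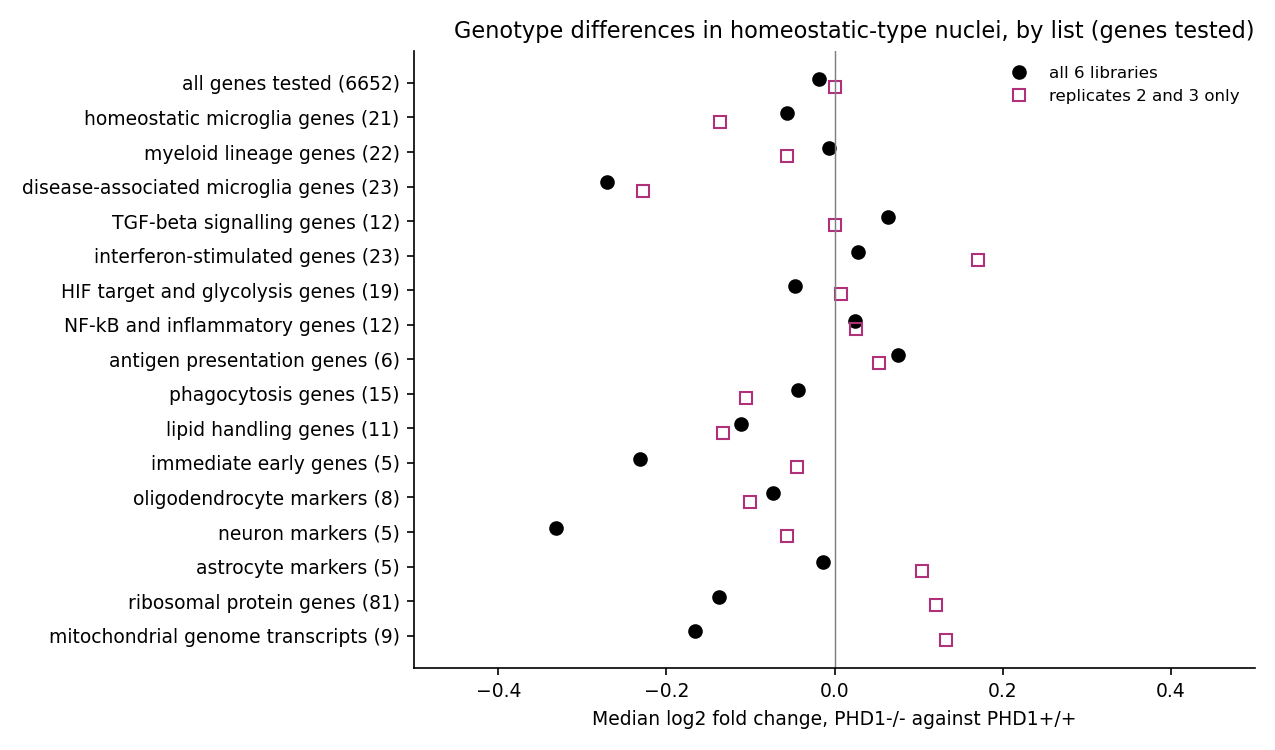
Median log2 difference (x axis, PHD1-/- against PHD1+/+) of the tested genes of each list in homeostatic-type nuclei, with all 6 libraries (black circles) and with replicates 2 and 3 only (open squares); the number of genes tested with all libraries stands beside each list. The disease-associated list lies at -0.27 and -0.23 (-0.33 to -0.01 with 1 library left out), and the ribosomal list changes side, from -0.14 to 0.12.

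Homeostatic-type nuclei were next set against the 386 microglial nuclei with disease-associated RNA only, within the same 6 libraries. The 2 kinds had median depths of 1271 and 1284 UMIs over all libraries, but within each of the 6 libraries the nuclei with disease-associated RNA only were the deeper ones, from 1317 against 1338 UMIs in PHD1+/+ replicate 2 to 741.5 against 901.5 in PHD1+/+ replicate 1. The part of depth in the differences was not tested. The gates chose both kinds of nuclei by their RNA, so the counts describe which other RNAs went with the gate genes and are no independent evidence that 2 kinds of cell exist. With library as a block, edgeR called 261 of 3772 genes higher in homeostatic-type nuclei (6.92%) and 272 lower (7.21%). DESeq2 called 153 higher and 159 lower, and all 312 of these were among edgeR's 533. With replicates 2 and 3 only, edgeR called 6.12% of 4642 genes higher and 6.79% lower, and without nuclei that held at least 3 neuron-marker UMIs 9.19% and 8.84% of 3100. The median log2 difference over all genes was -0.02. The sums did not overlap between the 6 homeostatic-type and the 6 disease-associated sums for 138 of the 533 genes called, beside 149 of all 3772 tested.

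All 20 tested genes of the homeostatic list were positive, and 14 of 20 were called higher, with a median log2 difference of 0.62. Selplg, the P-selectin ligand, stood at 696, 1234 and 1239.7 normalised CPM in PHD1+/+ and at 983, 866 and 1014 in PHD1-/- homeostatic-type nuclei of replicates 1 to 3. In nuclei with disease-associated RNA only it stood at 424, 308 and 335 and at 193, 308 and 209. Every homeostatic-type value lay above every other value. The log2 difference was 1.74 ± 0.18 (SE), with an adjusted p of 4.73e-07 in edgeR's quasi-likelihood test. Olfml3, a secreted protein gene of microglia, differed by 1.69 ± 0.20 (343 ± 78.2 against 109 ± 27.7, SD, n = 6 each), adjusted p = 3.66e-06 in edgeR.

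The other called genes of the homeostatic list included Cx3cr1, the fractalkine receptor (1.15 ± 0.13, 1367 against 616 normalised CPM), Gpr34, a lysophosphatidylserine receptor (1.25), P2ry13, a purine receptor (1.47), and Entpd1, an ectonucleotidase (1.05). Together with Trem2, Itgam, Cd33, Lyz2, Csf1, Fabp5, Lipa, Axl, Abcg1, Fcgr1, Fcgr3, Icam1, Cd74, Pgk1, Eno1, Rps6ka1, Mobp and Mal below, they were chosen for naming after their values were seen. Cst3 (0.91) and Ctss (0.56) were called with smaller differences. Not called were Fcrls (0.29), Tgfbr1 (0.16), Tgfbr2 (0.29), Mef2a (0.28), Ets1 (0.44) and Sparc (0.34). With replicates 2 and 3 only, 15 of 21 were called higher.

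**Figure D5:**
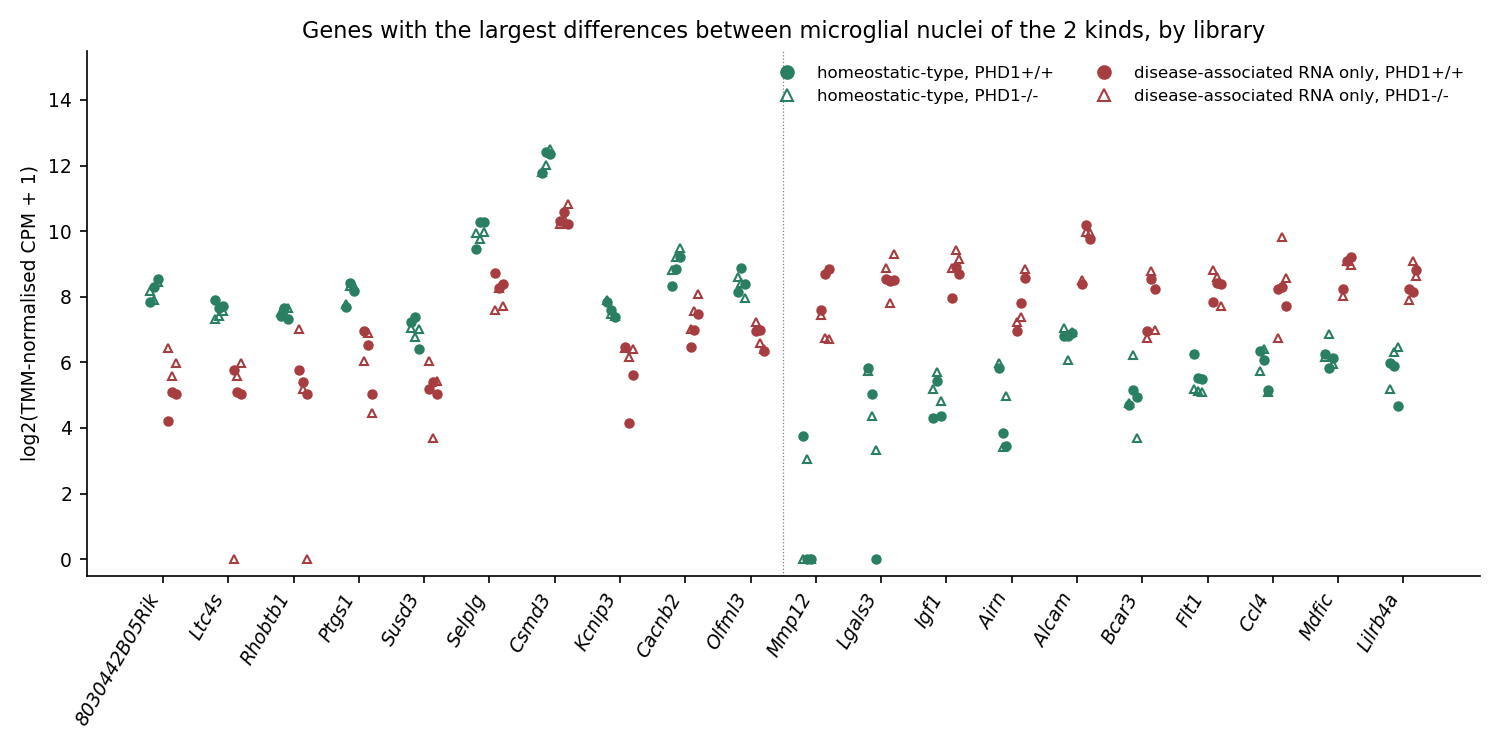
Level in each library (y axis, log2 of normalised CPM plus 1) of the 10 genes with the largest increase and the 10 with the largest decrease in homeostatic-type nuclei (green) against nuclei with disease-associated RNA only (red), with filled circles for PHD1+/+ and open triangles for PHD1-/- libraries. The green and red points of Csmd3, Selplg and Igf1 do not overlap in either genotype, and Mmp12 lies at 0 in 4 of the 6 homeostatic-type sums.

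Beyond the list, the largest increases were in genes less often used as markers. Csmd3, a large membrane protein gene better known from neurons, stood at 3491, 5414 and 5189.8 normalised CPM in PHD1+/+ and at 3573, 4163 and 5848 in PHD1-/- homeostatic-type nuclei. In nuclei with disease-associated RNA only it stood at 1271, 1524 and 1182 and at 1198, 1316 and 1818. The lowest homeostatic-type value lay above the highest of the others, and the log2 difference was 1.73 ± 0.12 (SE) with an adjusted p of 1.08e-09 in edgeR. The gene labelled 8030442B05Rik had a difference of 2.76 ± 0.27, from 46.4 ± 24.5 to 299.7 ± 59.1 normalised CPM (SD, n = 6 each).

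Ltc4s, leukotriene C4 synthase, was higher by 2.32 ± 0.31 (SE) and Ptgs1, cyclooxygenase-1, by 1.85 ± 0.27, both enzymes that make lipid mediators from arachidonic acid. Ptgs1 stood at 281 ± 56.6 normalised CPM against 75.1 ± 43.4 (SD, n = 6 each). Rhobtb1 (2.01), Susd3 (1.85), Kcnip3, a potassium channel-interacting protein (1.71), and Cacnb2, a calcium channel subunit (1.71), completed the 10 largest. All 10 genes were higher in 6 of 6 libraries, and the sums of the 2 kinds of nuclei did not overlap for any of them.

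Of 28 disease-associated genes, again without the gate genes, 23 were tested, 18 were called lower and 1 higher, with a median log2 difference of -0.89. Igf1, insulin-like growth factor 1, stood at 18.6, 42.4 and 19.7 normalised CPM in PHD1+/+ and at 35.1, 51.2 and 27.1 in PHD1-/- homeostatic-type nuclei. In nuclei with disease-associated RNA only it stood at 247, 483 and 415 and at 471, 688 and 564. The 2 kinds did not overlap, and Igf1 fell by 3.84 ± 0.21 on the log2 scale (adjusted p = 2.31e-11 in edgeR). Lgals3, galectin-3, fell by 3.92 ± 0.34, from 403 ± 135 to 28.2 ± 22.9 normalised CPM (SD, n = 6 each).

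Apoe was lower in homeostatic-type nuclei of every library, but stayed abundant. It stood at 6585, 11905 and 4998 normalised CPM in PHD1+/+ and at 3626, 9609 and 5285 in PHD1-/- homeostatic-type nuclei. In nuclei with disease-associated RNA only it stood at 13799.5, 22172 and 10494 and at 11236, 18569.9 and 11554. Within each library the homeostatic-type value was the lower one, with a log2 difference of -1.12 ± 0.11 (SE) and an adjusted p of 3.26e-07 in edgeR. Apoe was detected in 75% of homeostatic-type nuclei and in 94.6% of nuclei with disease-associated RNA only.

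Other called members of the list were Lyz2, lysozyme (-2.50), Csf1, the ligand of the CSF1 receptor (-2.13), Axl, a receptor for dying cells (-1.04), and Fth1, the ferritin heavy chain (-0.88). Not called were Tyrobp (-0.21), the signalling adaptor of TREM2, Ctsd (-0.27), Ctsl (-0.13) and B2m (-0.17). Trem2 went against its list, at 1012 ± 225 against 726 ± 144 normalised CPM (SD, n = 6 each), higher in 6 of 6 libraries by 0.47 ± 0.13 with an adjusted p of 0.0187 in edgeR. That call was lost without PHD1+/+ replicate 2 (adjusted p = 0.105), without PHD1+/+ replicate 3 (0.068) and with DESeq2 (0.0988).

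Among all genes, the largest decrease was in Mmp12, macrophage elastase. It had 12.4 and 7.32 normalised CPM in PHD1+/+ replicate 1 and PHD1-/- replicate 2 and 0 in the other 4 homeostatic-type sums, against 104 to 463 in nuclei with disease-associated RNA only. The fitted log2 difference of -5.92 ± 0.47 (SE) rests on those near-empty sums. Alcam, a cell adhesion molecule, fell by 2.92 ± 0.24 (109.9 against 786 normalised CPM), Mdfic by 2.67, Bcar3 by 2.92 and the chemokine gene Ccl4 by 2.69. Lilrb4a, an inhibitory receptor, fell by 2.64, with the reservation that reads may be shared with a similar neighbouring gene. Airn, an RNA antisense to Igf2r, fell by 3.35, and without a stated strand its reads cannot be told from those of Igf2r.

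Flt1, a VEGF receptor found on endothelial cells and on activated myeloid cells, fell by 2.88 ± 0.25 on the log2 scale. It is also 1 of 3 endothelial markers, which summed to 56.6 CPM in homeostatic-type nuclei and 289 in nuclei with disease-associated RNA only. The other two, Cldn5 and Pecam1, had 27 and 21 UMIs in homeostatic-type nuclei (13.3 and 10.3 CPM) and 13 and 8 in the others (23.4 and 14.4 CPM). Border macrophage markers summed to 123 CPM against 346 CPM, and Ms4a7 was the gene with the clearest gap, 16 UMIs in homeostatic-type nuclei against 85. The part of such cells in the differences was not tested.

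Of 9 lipid handling genes tested, 7 were called lower and 0 higher, with a median of -1.12. Leaving out 1 library gave 4 to 8 called lower, the 4 without PHD1+/+ replicate 2. They included Fabp5, a fatty acid carrier (-1.57), Lipa, the lysosomal acid lipase (-1.41), Abcg1, a cholesterol exporter (-1.23), and Apoe, which is also on the disease-associated list. Abca1 (-0.72) lost its call without PHD1+/+ replicate 3 (adjusted p = 0.0732 in edgeR) and without PHD1-/- replicate 3 (0.114). Lrp1, a lipoprotein receptor, had a difference of -0.50 ± 0.16, and its call was lost with DESeq2 (adjusted p = 0.102) and in 5 of 6 edgeR fits without 1 library (0.0609 to 0.138), all but that without PHD1+/+ replicate 1.

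General myeloid genes and phagocytosis genes were called higher more often than lower. Of 22 myeloid lineage genes 9 were called higher and 0 lower, with a median of 0.39, among them Itgam, an integrin of myeloid cells (1.03), and Cd33, an inhibitory lectin (1.58). Of 15 phagocytosis genes 6 were called higher and 1 lower, Axl, with a median of 0.05. Elmo1, which drives engulfment through Rac, was higher by 0.86 ± 0.12 (2384 ± 672 against 1296 ± 280.0 normalised CPM, SD, n = 6 each), and Mertk by 0.44 ± 0.13. The call of Mertk was lost without PHD1+/+ replicate 2 (adjusted p = 0.0951 in edgeR), PHD1-/- replicate 2 (0.0963) or PHD1-/- replicate 3 (0.0909), and with DESeq2 (0.106). The other 4 were Itgam, Trem2 and the antibody receptor genes Fcgr1 (1.30) and Fcgr3 (0.77). Fcgr3 lost its call in the fits without replicate 1 or 3 of either genotype (adjusted p up to 0.121 in edgeR).

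Lists for signalling and oxygen sensing held few called genes. Of 11 TGF-beta genes 0 were called (median 0.06), and of 9 interferon-stimulated genes 0 (median 0.35), with 1 gene of each list at an unadjusted p under 0.05 in edgeR and 0 called by DESeq2. Icam1, an adhesion receptor (0.96), was the only 1 of 7 NF-kB and inflammatory genes called, and Cd74, the invariant chain of class II antigen presentation (-1.03), the only 1 of 4 antigen presentation genes. Icam1 lost its call in 5 of 6 fits without 1 library (adjusted p up to 0.142 in edgeR), all but that without PHD1-/- replicate 2, and Cd74 with replicates 2 and 3 only (0.0627). Hif1a was lower in homeostatic-type nuclei, 171 ± 48.4 against 282 ± 111 normalised CPM (SD, n = 6 each), by -0.75 ± 0.19 with an adjusted p of 0.0102 in edgeR. That call was lost without PHD1+/+ replicate 2 (0.0613), without PHD1+/+ replicate 3 (0.0511) and with no filter on low counts (0.143). Of 13 HIF target and glycolysis genes 3 were called lower, the glycolytic enzyme genes Pgk1 (-0.90), Eno1 (-0.84) and Pkm (-0.53), and Hk2 higher, with a median of -0.51. The number called lower was 0 without PHD1+/+ replicate 1 or 2 and 1 without replicate 3 of either genotype, and the median was -0.16 without PHD1+/+ replicate 1. With DESeq2 the adjusted p was 0.0559 for Pgk1, 0.136 for Eno1 and 0.102 for Pkm. Hk2 (0.55 ± 0.17, adjusted p = 0.0309 in edgeR) lost its call with replicates 2 and 3 only (0.0596) and without PHD1+/+ replicate 3, PHD1-/- replicate 1 or PHD1-/- replicate 3 (up to 0.0940).

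Ribosomal protein genes, neuron markers and the astrocyte marker Slc1a2 lost their calls without replicate 1, apart from Rps6ka1. Of 79 ribosomal protein genes 12 were called lower and 1 higher with a median of -0.46 (3 to 19 lower with 1 library left out, the 3 without replicate 1 of either genotype), and in replicates 2 and 3 only 0 lower and 1 higher of 78, with a median of -0.16. The gene called higher, Rps6ka1 (1.20), encodes a kinase and is on the list through its symbol. Meg3 and Snhg11, neuronal long RNAs, were called higher in homeostatic-type nuclei by 0.88 and 0.85. Meg3 stood at 5349 and 5179.7 normalised CPM in the 2 replicate 1 sums and at 138 to 334 in the others. Without nuclei that held at least 3 neuron-marker UMIs the difference for Meg3 was -0.086 and 0 neuron markers were called. Of 8 oligodendrocyte markers 3 were called lower, the myelin genes Mbp (-0.66), Mobp (-0.71) and Mal (-0.66), and of 3 astrocyte markers 2, Gfap (-1.30) and Slc1a2 (-1.05). In fits without 1 library Slc1a2 lost its call in 4 of 6 (replicate 1 of either genotype, PHD1+/+ replicate 2 or PHD1-/- replicate 3), Mal in 3 of 6 (PHD1+/+ replicate 2 or replicate 3 of either genotype) and Mobp in 1 (PHD1+/+ replicate 3). With replicates 2 and 3 only, 3 oligodendrocyte markers and 0 of 2 astrocyte markers were called lower, and Gfap was not among the genes tested. Gfap kept its call in the 3 fits without 1 library that tested it (adjusted p = 0.00335 to 0.0157 in edgeR). By DESeq2 its adjusted p was 0.0677.

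Nuclei were also counted by their summed UMIs of a list, which may all come from 1 gene. At least 3 UMIs of 9 cell division genes were found in 31 of 1428 homeostatic-type nuclei (2.17%, exact 95% interval 1.48 to 3.07) and in 3 of 386 with disease-associated RNA only (0.777%, 0.161 to 2.25). The highest had 30 such UMIs, in PHD1-/- replicate 2, which held 12 of the 31 nuclei. The others held 6, 5 and 4 in PHD1+/+ replicates 1 to 3 and 1 and 3 in PHD1-/- replicates 1 and 3. At least 3 UMIs of immediate early genes were found in 2.66% of homeostatic-type nuclei and 8.55% of nuclei with disease-associated RNA only, and of interferon-stimulated genes in 34.4% and 36.8%. The intervals cover counting error within these libraries and compare no condition.

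Whether the genotype difference itself depended on the state was tested in 1 model over both kinds of nuclei. Of 5094 genes 0 passed an adjusted p of 0.05 in edgeR (0% called), with 145 at an unadjusted p under 0.05 (2.85%). DESeq2 gave 0 calls, and 31 genes under 0.05 before adjustment. The homeostatic list had a median of -0.02 for this term and the disease-associated list -0.16, beside 0.01 over all genes. Without PHD1-/- replicate 1, 3 genes were called, the haemoglobin genes Hba-a1, Hba-a2 and Hbb-bs.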

How the data were processed

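Nuclei were profiled with a droplet-based 3′ kit. The deposited values are unnormalised UMI counts for each gene in each barcode. Per the file headers they were made with Cell Ranger 5.0.1, whereas version 5.0.2 stands in the submitters' processing notes, beside Scanpy 1.8.1 and the build mm10. They cover 32285 genes, and 4 tag features with 0 UMIs were left out. On whether introns or strand entered the counting, nothing is given in the sources used here. Introns, where counted, raise the level of long genes, so no level was compared between genes. Clec7a was not analysed here.

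Of 42758 barcodes 42628 were kept (at least 500 UMIs, under 5% mitochondrial). Scrublet marked 0 doublets in replicate 1 of both groups and 110 to 268 in the other libraries. Whether it had worked in replicate 1 was not tested. Doublets were therefore kept, and leaving them out was an alternative. Homeostatic-type nuclei held 168786 to 497673 UMIs per library, and a gene at 10 CPM thus rests on a few UMIs. Each library gave 1 sum of counts per class, and nuclei were never treated as replicates. The sums were tested with edgeR 4.0.16 (quasi-likelihood, trimmed mean of M-values, filterByExpr, Benjamini-Hochberg, threshold 0.05) in R 4.3.3, and with DESeq2 1.42.0 as an alternative. CPM are raw unless called normalised, and normalised CPM were scaled within each comparison. Shares and Egln2 were compared over libraries by exact two-sided permutation tests in Python 3.11.15. The fits were also run on simulated counts, with the same dispersion for every gene and no shift of replicate 1. Those runs do not show how the fits behave on libraries with that shift. By genotype, p-values set a difference against the spread between libraries. By state and for the state-by-genotype term, library was a block, so they set it against the spread of differences within libraries.

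Same-numbered libraries deviated together from their group means (correlations 0.67, 0.35 and 0.47 for numbers 1 to 3). The main tests by genotype took the libraries as unpaired, and values with the replicate number as a block are given as an alternative. Replicates 2 and 3 correlated as strongly across numbers (0.32 and 0.47), and the labels tie no pair to a number, so these correlations do not establish pairs.

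The nuclei and gene lists were chosen with earlier results of these data known. Genes used by the gates were left out of counts of calls. Named by genotype were the genes past the threshold or the 6 of smallest p in each direction, by state the 10 largest changes in each direction at 100 CPM or more, and in both the 3 most abundant tested genes of each list. Some genes that these rules select are not reported here. Alternatives were other size factors, no filter on low counts, leaving out each library, replicate 1, doublets or nuclei with 3 neuron-marker UMIs or 50 haemoglobin UMIs, at least 2 homeostatic UMIs, 1000 UMIs per nucleus, and thinning to 800 UMIs. The neuron-marker and haemoglobin limits, the batch term and the share of nuclei with disease-associated RNA were chosen after seeing the data.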

Additional observations from a re-analysis of the deposited data

How the results depend on the processing

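There were 3 libraries a group and few UMIs per gene, which limits the precision of each difference. By genotype, genes called in homeostatic-type nuclei went from 0 to 6 with no filter on low counts, to 9 with replicates 2 and 3 only, to 2 with the replicate block, to 1 with the block but without nuclei of 3 or more neuron-marker UMIs, and to 6 with replicates 2 and 3 only without the haemoglobin nucleus. The count was 0 when each library was left out in turn, with DESeq2, without doublets and with at least 2 homeostatic UMIs. By state, genes called higher numbered 153 with DESeq2, 436 with no filter and 88 with no library block. Genes called lower numbered 159 with DESeq2 and 79 with no library block. Leaving out 1 library gave 188 to 273 higher and 166 to 256 lower, lowest without PHD1+/+ replicate 2. For the state-by-genotype term the count went from 0 to 5 with no filter and to 1 with replicates 2 and 3 only, and leaving out 1 library gave 0 to 3, the 3 without PHD1-/- replicate 1. The cause was not tested.

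The difference of Meg3 by state turned to -0.086 without nuclei of 3 or more neuron-marker UMIs. Leaving out 1 library gave differences of 1.81 to 12.1 points for the homeostatic-type share of microglial nuclei and of -16.2 to -8.60 CPM for Egln2. The replicate block gave p = 0.25 for both by the exact permutation test of pairs and changed no call of a share. Among single genes named, list medians and the share with disease-associated RNA, 95 values under an alternative lost their call, 4 gained one, 23 moved by more than the spread between libraries and 1 called value (Meg3) turned its sign, while 1575 stayed on their side of the threshold or within that spread. Values that were not called changed sign more often. By state this held for 7 of 24 such genes (18 values), and by genotype for 46 of 67 (175 values).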
